A study of Mus musculus with 16 samples.

Results

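Hox genes encode homeodomain transcription factors that give cells along the body axis and along the limb their positional identity. They were taken here as every gene on the array whose symbol, found through the accession of its probe, has the form Hox, a cluster letter from a to d and a paralogue number. This gave 39 genes on 43 probes, out of 20122 RefSeq genes on the array. RNA came from whole gastrocnemius muscle, a hindlimb calf muscle, of untreated female C57Bl/6J mice, an inbred strain, at 3, 15, 24 and 29 months of age, with 4 samples per age and 1 single-colour array per sample. The labels do not state whether each sample is a different mouse. A p-value here therefore speaks only of the scatter among these samples, part of which may be technical, and 4 arrays per age limit its precision.

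The 39 mouse Hox genes lie in 4 clusters, HoxA on chromosome 6, HoxB on chromosome 11, HoxC on chromosome 15 and HoxD on chromosome 2. Genes at the same position in different clusters are paralogues and carry the same number. Low numbers act towards the head and high numbers towards the tail, and in the limb the highest numbers act most distally, with paralogues 9 and 10 in the upper segment, 11 in the middle segment that the gastrocnemius overlies, and 13 in the foot. Adult mesenchymal cells and muscle stem cells of mice keep part of this code, and Hoxa10 is known to be needed by muscle stem cells of the mouse hindlimb for regeneration. Hox proteins bind DNA with cofactors of the Pbx, Meis and Pknox families, and Polycomb and Trithorax proteins hold the clusters silent or active.

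Between 48.0% and 60.9% of the gene spots of an array were well above background, and none was saturated. Slide 1 carried the samples of 3 and 15 months, slide 2 those of 24 and 29 months. This leaves 15 against 3 months and 29 against 24 months as within-slide comparisons, whereas in those of 24 or 29 with 3 months age and slide cannot be told apart. Levels are log2 signals for which 0 is the 75th percentile of the array, and levels of different probes are not compared. In bulk muscle, fewer cells of a type and less RNA per cell cannot be told apart. All 12 muscle fibre genes looked at were well above background on all 16 arrays. Their score, the mean deviation of a list's genes from their own averages over the 16 arrays, was -0.08 to 0.08 on the 3-month arrays, -0.01 to 0.26 at 15 months, -0.08 to 0.10 at 24 months and -0.42 to 0.08 at 29 months.

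The muscle carried a middle section of the Hox code. Genes entered the tests when every one of the 4 arrays of some age showed a probe well above background, and 24 of the 39 Hox genes (61.5%) met this, against 66.4% of all RefSeq genes on the array. None of the 5 genes of paralogue groups 1 and 2 was tested, against 14 of 15 in groups 3 to 7, 9 of 13 in groups 8 to 11 and 1 of 6 in groups 12 and 13. On 20 genes the signal was well above background on all 16 arrays. An array held between 24 and 26 detected Hox genes at 3 months, 24 and 26 at 15 months, 22 and 25 at 24 months, and 22 and 28 at 29 months.

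**Figure D1:**
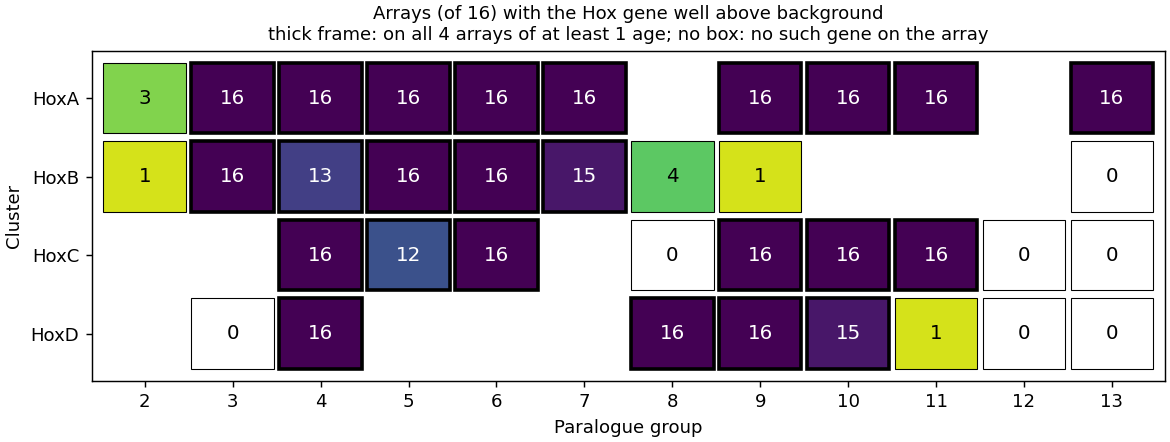
Number of arrays, of 16, on which each Hox gene was well above background, by cluster (rows) and paralogue group from 2 to 13 (columns). Thick frames mark the 24 tested genes, 14 of which are in groups 3 to 7, and positions without a box have no such gene on the array.

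The HoxA cluster was the most completely seen, with 9 of its 11 genes tested, all 9 on every array: Hoxa3, Hoxa4, Hoxa5, Hoxa6, Hoxa7, Hoxa9, Hoxa10, Hoxa11 and Hoxa13. Hoxa2, a hindbrain gene, was well above background on 3 arrays. HoxB had 5 of 10 genes tested, the unbroken run from Hoxb3 to Hoxb7. Of these Hoxb4 was well above background on 13 arrays and Hoxb7 on 15. Beyond that run Hoxb8 passed on 4 arrays, Hoxb2 and Hoxb9 on 1 each, and Hoxb1 and Hoxb13 on none.

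HoxC had 6 of 9 genes tested. These were Hoxc4, Hoxc5 and Hoxc6, and the distal Hoxc9, Hoxc10 and Hoxc11, which in the mouse embryo mark the hindlimb rather than the forelimb. Hoxc5 passed on 12 arrays, all of those at 3 and 15 months but 2 of 4 at 24 and 2 of 4 at 29 months. Hoxc8, Hoxc12 and Hoxc13 passed on none. HoxD had 4 of 9 tested, Hoxd4, Hoxd8, Hoxd9 and Hoxd10, the last on 15 arrays, while Hoxd11 passed on 1 array and Hoxd1, Hoxd3, Hoxd12 and Hoxd13 on none.

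A missing signal can belong to the probe rather than to the gene. Of the 39 genes, 35 had 1 probe and 4 had 2 probes, which did not always give the same answer. One Hoxb3 probe was well above background on 16 arrays and the other on 0. Hoxa13, which patterns the foot, rests in the same way on 1 probe that passed on 16 arrays while the other passed on 4. Both Hoxa9 probes passed on 16.

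The upstream window of Hoxb1, well above background on no array, is shown because it holds a motif for Hox proteins themselves. RefSeq promoter windows (GRCm38.p6), limited here to the 250 bases before the transcript start, matched 22 of the 39 genes with 24 windows. The Hox-Pbx motif TGATNNAT, searched on both strands (reverse complement ATNNATCA), was in 4 of the 9 windows of genes not tested, 0 of the 15 windows of tested genes, and 7.68% of all 32851 promoter windows. The 4 windows belong to Hoxa2, Hoxb1, Hoxb8 and Hoxd11. In mouse hindbrain such a site upstream of Hoxb1 is bound by Hoxb1 itself with Pbx. Its window is chr11:96365508-96365757, plus strand, with the motif in capitals.
Hoxb1: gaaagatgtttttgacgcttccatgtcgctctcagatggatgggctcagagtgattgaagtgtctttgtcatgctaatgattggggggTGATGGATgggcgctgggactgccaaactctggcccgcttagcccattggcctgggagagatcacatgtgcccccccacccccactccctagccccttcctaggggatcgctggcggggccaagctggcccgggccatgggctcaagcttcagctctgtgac
The Meis half-site motif TGACAG (reverse complement CTGTCA) was in 1 of 15 windows of tested genes, 1 of 9 of the others and 15.9% of all windows. A match describes the letters only.

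Hox levels were somewhat less even between replicate samples than those of other genes. The pooled within-age SD had a median of 0.281 log2 units over the 24 genes, against 0.231 over all 21776 genes tested. Hoxc9 was the steadiest at 0.139, with age means of 2.65 ± 0.11, 2.59 ± 0.09, 2.59 ± 0.12 and 2.68 ± 0.21 at 3, 15, 24 and 29 months (SD, n = 4 each). Hoxd9 was the least steady at 0.733.

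Few Hox genes were called as changed with age, at most 2 of 24 (8.33%) in any fit of this paragraph. That share was above the share of all genes at 24 against 3 months and below it at 29 against 3 months. limma was fitted to all 16 arrays and p-values were adjusted over all 21776 genes by the Benjamini-Hochberg method, and a gene was called at an adjusted p under 0.05. At 15 against 3 months 0 of 24 Hox genes were called, where 0.923% of all genes were, and 6 Hox genes had an unadjusted p under 0.05, as did 10.9% of all genes. At 24 against 3 months 2 were called, Hoxa6 higher and Hoxa10 lower, against 4.41% of all genes (2.23% higher and 2.19% lower), and 8 had an unadjusted p under 0.05, against 20.8% of all genes. At 29 against 3 months 2 were called, Hoxa4 higher and Hoxa10 lower, against 14.8% of all genes, and 6 had an unadjusted p under 0.05, against 28.8%. At 29 against 24 months 0 were called, against 1.56% of all genes, and 2 had an unadjusted p under 0.05, against 15.2%. A linear age term fitted beside a slide term (the line in age) called 0, against 0.615% of all genes, and 4 had an unadjusted p under 0.05, against 11% of all genes. The comparisons with 3 months share the 3-month arrays.

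Most of the changes were bounded to within a factor of 2. The 95% interval of the change lay between -1 and 1 log2 units for 17 of 24 Hox genes at 15 against 3 months, 15 at 24 against 3 months, 16 at 29 against 3 months and 18 at 29 against 24 months. Over all genes tested the shares were 86.9%, 81.5%, 79.7% and 85.3% in the same order. The median Hox change was -0.07, -0.06, -0.06 and -0.01, beside -0.02, 0.00, -0.04 and -0.05 for all genes. With the sign left out, the median size was 0.16, 0.29, 0.33 and 0.24 for Hox genes. It was 0.13, 0.19, 0.22 and 0.16 for all genes, so Hox changes were somewhat larger in size in each comparison. The 4 arrays of the older age all lay on one side of the 4 of the younger for 3 Hox genes at 15 against 3 months, 6 at 24 against 3, 4 at 29 against 3 and 0 at 29 against 24 months. Over all genes this held for 12.3%, 14.5%, 19.7% and 6.92%.

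**Figure D2:**
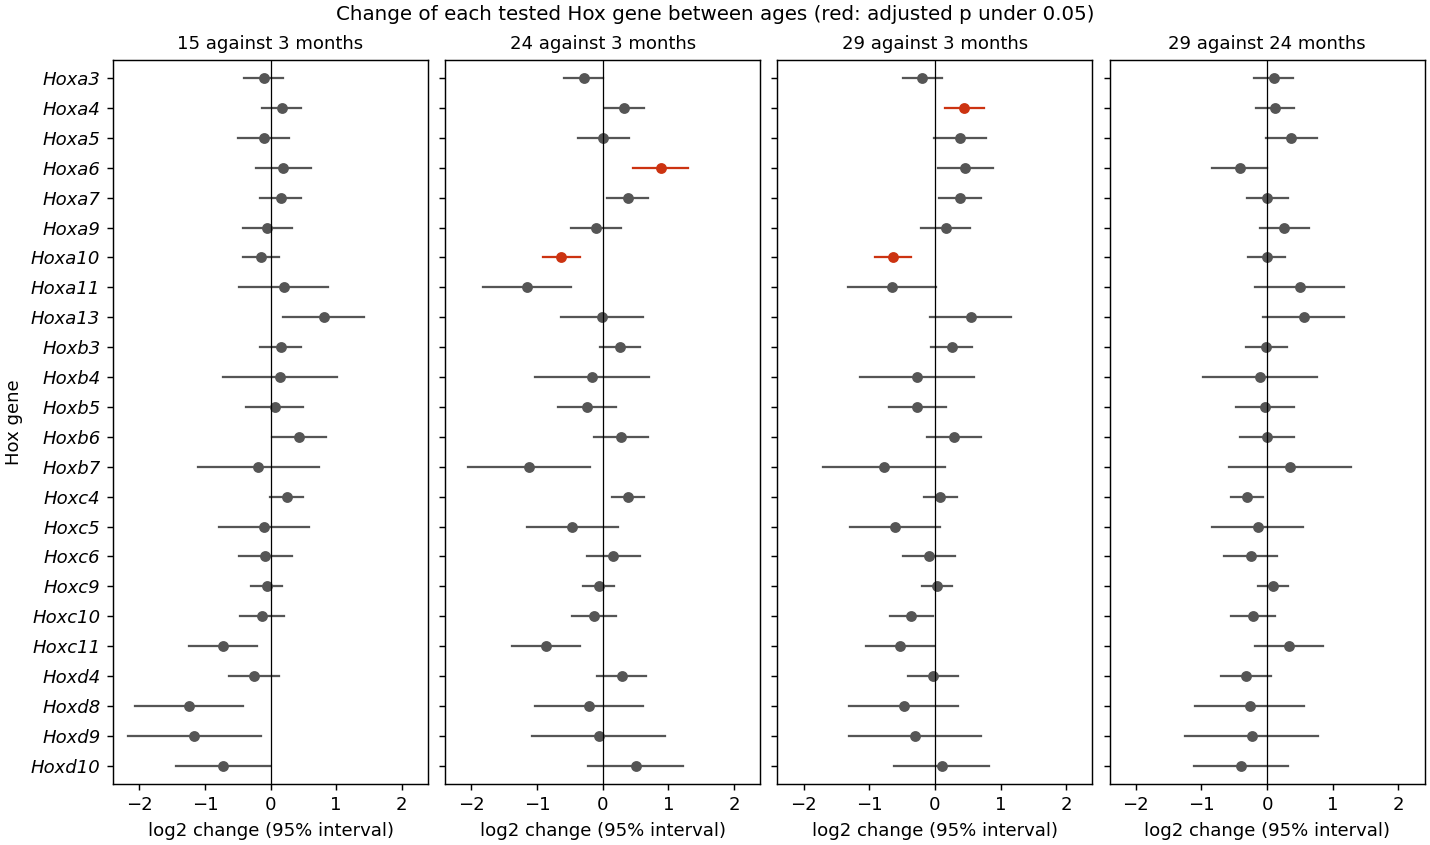
Log2 change of each of the 24 tested Hox genes (rows, in cluster order) in 4 comparisons of ages (panels), with 95% intervals from limma. Red marks the calls, which are Hoxa6 and Hoxa10 at 24 against 3 months and Hoxa4 and Hoxa10 at 29 against 3 months. The widest intervals belong to Hoxb4, Hoxb7 and the HoxD genes Hoxd8 and Hoxd9.

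Hoxa10 gave the clearest difference between ages. Its level was 0.39, 0.50, 0.96 and 0.82 on the 3-month arrays, 0.50, 0.49, 0.49 and 0.62 at 15 months, 0.16, 0.18, -0.04 and -0.14 at 24 months, and -0.15, 0.18, 0.15 and -0.05 at 29 months. The 8 arrays of the older ages all lay below the 8 of the younger ages. It was lower at 24 than at 3 months by a log2 change of -0.63 (SE 0.13, limma adjusted p = 0.0139) and lower at 29 than at 3 months by -0.64 (SE 0.13, adjusted p = 0.00456). Within the slides the differences were small, -0.15 at 15 against 3 months (adjusted p = 0.823) and -0.01 at 29 against 24 months (adjusted p = 0.986). The step thus lies between the slides, and with slide as a block the line in age was -0.01 per month (adjusted p = 0.786). The call at 29 months held in all 27 other fits, while that at 24 months was lost without 3 months replicate 4 (adjusted p = 0.0504), without the 4 arrays of lowest array weight (0.0597) and in a fit of those 2 ages alone (0.0688).

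Hoxa10 has 2 RefSeq start sites, whose upstream windows are shown because it was the one Hox gene called lower at both old ages. Capitals mark CG dinucleotides, the sites of DNA methylation, and neither window holds either motif. The window chr6:52234940-52235189, minus strand, has 20 of them, an observed over expected ratio of 0.913. The window chr6:52240855-52241104, minus strand, has 7, a ratio of 0.458. The median ratio was 0.721 over the 24 Hox windows and 0.374 over all promoter windows.
Hoxa10, start with more CG: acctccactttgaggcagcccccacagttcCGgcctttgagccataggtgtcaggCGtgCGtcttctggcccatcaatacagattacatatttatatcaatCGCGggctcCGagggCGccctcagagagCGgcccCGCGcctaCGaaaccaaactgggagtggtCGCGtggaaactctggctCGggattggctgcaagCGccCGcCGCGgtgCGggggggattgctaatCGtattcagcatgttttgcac
Hoxa10, start with fewer CG: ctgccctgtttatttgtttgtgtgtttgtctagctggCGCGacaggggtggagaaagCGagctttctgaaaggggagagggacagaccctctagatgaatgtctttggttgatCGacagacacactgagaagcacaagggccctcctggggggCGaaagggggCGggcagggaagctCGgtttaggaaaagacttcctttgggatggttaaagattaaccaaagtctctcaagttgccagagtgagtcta

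Hoxa6 and Hoxa4, genes of the trunk part of the cluster, were higher at an old age. Hoxa6 stood at -2.16, -2.55, -2.51 and -2.43 at 3 months, -2.15, -2.09, -2.55 and -2.09 at 15 months, -1.72, -0.82, -1.92 and -1.67 at 24 months, and -1.85, -2.03, -2.09 and -1.83 at 29 months. All arrays of 24 and of 29 months lay above those of 3 months, and 24 months replicate 2 was far above the rest. The change was 0.88 at 24 against 3 months (SE 0.19, adjusted p = 0.0206) and 0.46 at 29 against 3 months, which was not called (adjusted p = 0.128) except without 24 months replicate 2 (0.0232). Between the ages on slide 2, 29 against 24 months, it was -0.42 (adjusted p = 0.327), or -0.18 without 24 months replicate 2. The call was lost when 3 months replicate 2, 3 or 4 was left out (adjusted p 0.0584, 0.0608 and 0.0569). The call at 24 against 3 months held in 7 of 11 other settings. Without the 4 arrays of lowest array weight the change was 0.59 (adjusted p = 0.0667), and with normexp background correction it was 0.41 (adjusted p = 0.0633). With the deposited log2 values it was 0.61 (adjusted p = 0.0985), and in a fit of those 2 ages alone 0.88 (adjusted p = 0.0862).

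Hoxa4 stood at -1.54, -1.96, -2.10 and -2.13 at 3 months, -1.71, -1.82, -1.64 and -1.86 at 15 months, -1.51, -1.43, -1.55 and -1.92 at 24 months, and -1.66, -1.47, -1.36 and -1.45 at 29 months. The 29-month and 3-month arrays overlapped through 3 months replicate 1. The change was 0.45 at 29 against 3 months (SE 0.14, adjusted p = 0.0411). This call held in 3 of 11 other settings and in 5 of the 16 fits that left out 1 array. It was lost without 3 months replicate 2, 3 or 4 (adjusted p 0.0905, 0.111 and 0.119), without any 15-month array (adjusted p 0.0503 to 0.0544), without 24 months replicate 3 (adjusted p = 0.0523) and without 29 months replicate 2, 3 or 4 (adjusted p 0.0748, 0.0942 and 0.0786).

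The neighbours of these genes in HoxA were not called. Hoxa7 averaged 2.09 ± 0.05, 2.24 ± 0.19, 2.47 ± 0.08 and 2.47 ± 0.36 at 3, 15, 24 and 29 months (SD, n = 4 each), a change of 0.38 at 29 against 3 months (adjusted p = 0.0966). Without 29 months replicate 1 it was 0.50, a call (adjusted p = 0.0293), and without replicate 2 it was 0.22. Hoxa5, known for patterning of the ribs and lung, stood at -2.16, -2.38, -2.17 and -1.84 at 3 months, -2.27, -2.56, -2.48 and -1.66 at 15 months, -1.90, -2.10, -2.16 and -2.35 at 24 months, and -1.91, -1.48, -1.78 and -1.85 at 29 months. At 29 against 24 months, within slide 2, its change was 0.37 (adjusted p = 0.360), with 1 array of 24 months inside the range of 29 months. Hoxa3 and Hoxa9 moved by at most 0.29 in size in any of the 4 comparisons of ages.

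Hoxa13 stood at -2.46, -2.09, -1.67 and -2.19 at 3 months, -1.62, -0.79, -1.41 and -1.36 at 15 months, -1.55, -2.12, -2.27 and -2.53 at 24 months, and -1.59, -1.21, -1.02 and -2.41 at 29 months. The arrays of 15 months lay above those of 3 months by 0.81 on average (SE 0.29, adjusted p = 0.269). The line with slide as a block was 0.07 per month (adjusted p = 0.160) and was called only with array weights (adjusted p = 0.0282). Hoxa11, needed for the lower leg skeleton together with its paralogues, averaged -0.00 ± 0.29, 0.19 ± 0.17, -1.16 ± 0.59 and -0.66 ± 0.69 at 3, 15, 24 and 29 months (SD, n = 4 each). Its change at 24 against 3 months was -1.15 (SE 0.32) and missed the threshold (adjusted p = 0.0523). It was called in 7 of 11 other settings (adjusted p 0.0204 to 0.0483, against 0.0518 to 0.22 in the rest) and in the fits without 24 months replicate 1 or 29 months replicate 3 or 4 (adjusted p 0.0214, 0.0373 and 0.0203).

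**Figure D3:**
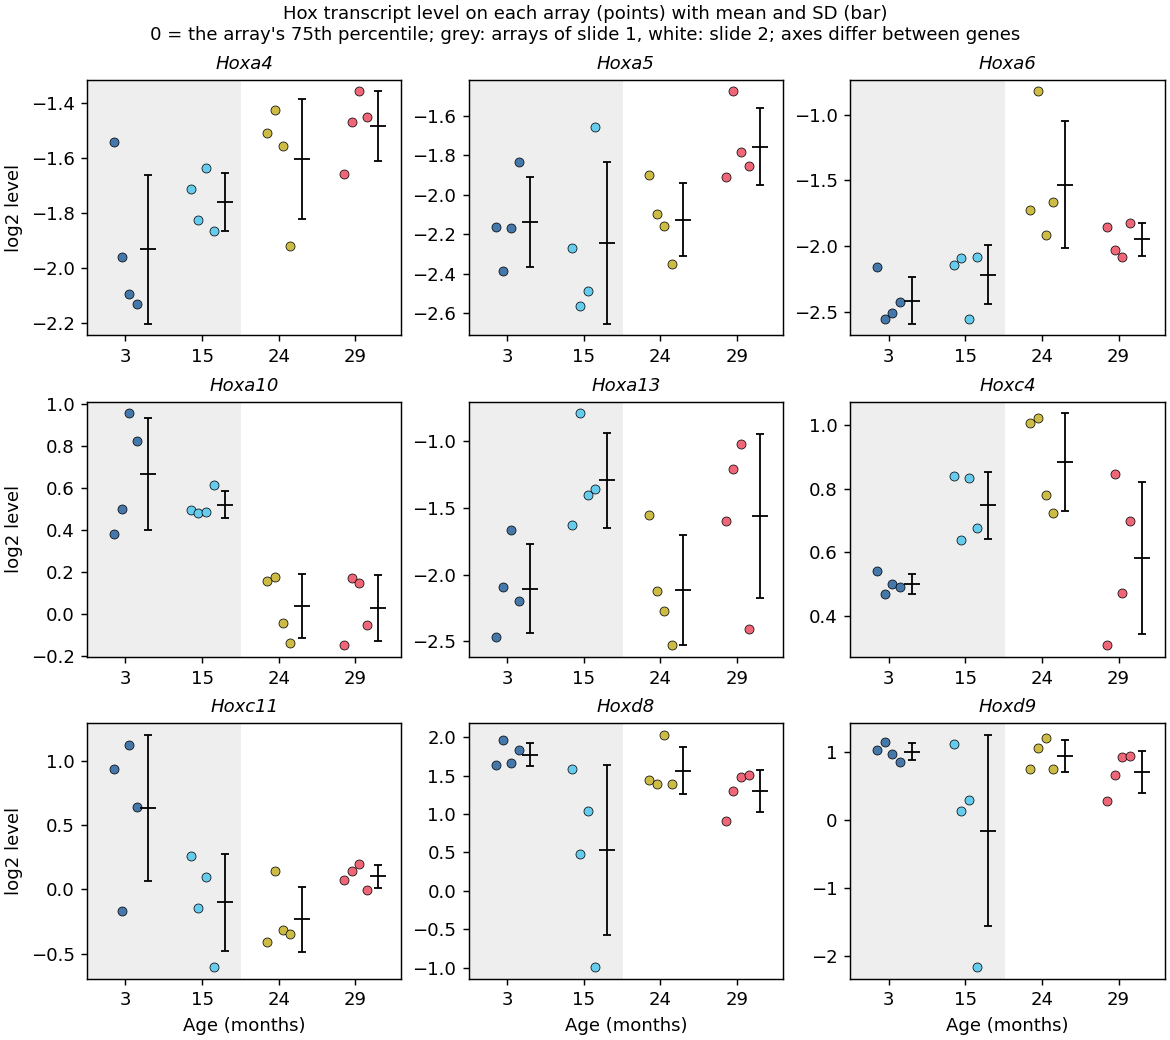
Level of 9 Hox genes on each array (points, log2 relative to the 75th percentile of the array) by age in months, with the mean and SD of the 4 arrays beside them. Hoxa10 lies lower on all arrays of slide 2 (white) than on those of slide 1 (grey), and Hoxd8 and Hoxd9 spread widely at 15 months.

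HoxB genes showed no call in any comparison. Hoxb6 averaged 2.54 ± 0.26, 2.98 ± 0.19, 2.83 ± 0.17 and 2.83 ± 0.44 at 3, 15, 24 and 29 months (SD, n = 4 each), with a change of 0.43 at 15 against 3 months (adjusted p = 0.423). At 29 against 3 months the Hoxb6 change was 0.29 (adjusted p = 0.353), and it was a call without 29 months replicate 1. Hoxb7 averaged -1.66 ± 0.17, -1.85 ± 0.21, -2.79 ± 1.24 and -2.44 ± 0.47, and its arrays of 24 and of 29 months all lay below those of 3 months. The changes were -1.12 at 24 against 3 months (adjusted p = 0.158) and -0.78 at 29 against 3 months (adjusted p = 0.260). Replicate 2 of 24 months, at -4.60, was the one array on which Hoxb7 was not well above background. Without it the change at 24 months was -0.52 (adjusted p = 0.267), and that at 29 months, still -0.78, was a call (adjusted p = 0.0212). Hoxb3, Hoxb4 and Hoxb5 changed by at most 0.27 in size in any of the 4 comparisons.

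HoxC genes had no call either. Hoxc11 stood at 0.94, -0.17, 1.12 and 0.64 at 3 months, 0.26, -0.15, 0.09 and -0.60 at 15 months, -0.41, 0.15, -0.32 and -0.35 at 24 months, and 0.07, 0.14, 0.20 and -0.00 at 29 months. Replicate 2 of 3 months lay among the older arrays while the other 3 lay above all of them. The change at 15 against 3 months was -0.73 (SE 0.24, adjusted p = 0.217), and without that array it was -0.998 (adjusted p = 0.0347), a call. At 24 against 3 months it was -0.86 (adjusted p = 0.0575), a call without 3 months replicate 2 (0.0094) or 15 months replicate 4 (0.0499). It was also a call with median scaling (-1.01, adjusted p = 0.0339) and with normexp (-0.70, adjusted p = 0.0393). At 29 against 3 months the change was -0.53 (adjusted p = 0.164), and -0.80 without 3 months replicate 2, a call (adjusted p = 0.0193).

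Hoxc4 was nearly constant at 3 months, at 0.54, 0.47, 0.50 and 0.49, and stood at 0.84, 0.64, 0.84 and 0.68 at 15 months, 1.01, 1.02, 0.78 and 0.72 at 24 months, and 0.31, 0.85, 0.47 and 0.70 at 29 months. All arrays of 15 and of 24 months lay above those of 3 months, by 0.25 (adjusted p = 0.462) and 0.38 (adjusted p = 0.0759, or 0.0421 without 29 months replicate 1). At 29 against 24 months, within slide 2, the change was -0.30 (SE 0.12, adjusted p = 0.225). Hoxc10, which in mice also specifies lumbar motor neurons, averaged 2.21 ± 0.21, 2.08 ± 0.19, 2.07 ± 0.32 and 1.85 ± 0.14 at 3, 15, 24 and 29 months (SD, n = 4 each), a change of -0.36 at 29 against 3 months (adjusted p = 0.146). Hoxc6 changed by at most 0.25 in size, and Hoxc5 by -0.61 at 29 against 3 months (adjusted p = 0.235), or -0.35 without 29 months replicate 3. With the deposited log2 values this Hoxc5 change was -0.21 (adjusted p = 0.725), and with normexp it was 0.05 (adjusted p = 0.821). At 24 against 3 months Hoxc5 changed by -0.46 (adjusted p = 0.438). There the deposited values gave -1.23, a call (adjusted p = 0.0363), and normexp gave -0.16 (adjusted p = 0.348).

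HoxD genes had no call, and 3 of the 4 tested spread widely between the samples of 15 months. Hoxd8 stood at 1.64, 1.96, 1.67 and 1.83 at 3 months, 1.58, 0.48, 1.04 and -0.99 at 15 months, 1.45, 1.39, 2.03 and 1.39 at 24 months, and 0.91, 1.30, 1.49 and 1.50 at 29 months. All 15-month arrays lay below those of 3 months, with replicate 4 far below. The change was -1.25 (SE 0.39, adjusted p = 0.176), and without that replicate it was -0.74 (adjusted p = 0.277). The line with slide as a block was -0.10 per month (adjusted p = 0.170) and -0.06 without that replicate (adjusted p = 0.231).

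Hoxd9 repeated the pattern of Hoxd8. It stood at 1.03, 1.15, 0.98 and 0.86 at 3 months, 1.12, 0.13, 0.30 and -2.17 at 15 months, 0.75, 1.06, 1.21 and 0.75 at 24 months, and 0.28, 0.66, 0.93 and 0.95 at 29 months. Replicate 1 of 15 months lay within the range of 3 months, and replicates 2, 3 and 4 below it. The change at 15 against 3 months was -1.16 (SE 0.47, adjusted p = 0.359), or -0.49 without replicate 4 of 15 months (adjusted p = 0.567). The line with slide as a block was -0.09 per month (adjusted p = 0.336), or -0.04 without replicate 4 of 15 months (adjusted p = 0.456). Hoxd10, which in mice also specifies lumbar motor neurons, was at -2.04, -3.03, -2.30 and -4.13 at 15 months, a change of -0.72 against 3 months (adjusted p = 0.456), or -0.30 without replicate 4 (adjusted p = 0.854). It passed on 3 of these 4 arrays. Its cluster's antisense transcript Hoxd3os1 was at -0.78, -1.77, -1.59 and -3.21 on the same arrays. Hoxd4, the most headward HoxD gene tested, was at -1.02, -1.63, -1.39 and -1.43, with no low value on replicate 4, and changed by at most 0.32 in size.

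Marker scores of the same sample were mixed. On 15 months replicate 4 the mean deviation was 0.27 for the 16 fibroblast markers, within the 0.16 to 0.30 of that age, 0.36 for the 13 tested matrix genes, the highest of that age (0.06 to 0.36), and -0.01 for the muscle fibre markers, the lowest of that age (-0.01 to 0.26). Nerve and Schwann cell markers (-0.52) and T and NK cell markers (-0.32) were also at their lowest of that age, and macrophage markers (0.40) and satellite cell markers (0.07) at their highest. Whether these have a part in the low HoxD values was not tested.

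The upstream windows of the 3 HoxD genes that were low together are shown for comparison, again with CG in capitals. They are chr2:74691641-74691890 for Hoxd10 with 20 CG, chr2:74697513-74697762 for Hoxd9 with 13 and chr2:74704365-74704614 for Hoxd8 with 6, all on the plus strand. None holds the Hox-Pbx or the Meis motif.
Hoxd10: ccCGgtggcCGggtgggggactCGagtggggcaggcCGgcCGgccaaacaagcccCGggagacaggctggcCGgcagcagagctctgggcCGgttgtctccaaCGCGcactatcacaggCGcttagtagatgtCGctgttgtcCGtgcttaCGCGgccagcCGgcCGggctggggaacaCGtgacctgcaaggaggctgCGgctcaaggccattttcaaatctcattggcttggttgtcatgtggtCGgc
Hoxd9: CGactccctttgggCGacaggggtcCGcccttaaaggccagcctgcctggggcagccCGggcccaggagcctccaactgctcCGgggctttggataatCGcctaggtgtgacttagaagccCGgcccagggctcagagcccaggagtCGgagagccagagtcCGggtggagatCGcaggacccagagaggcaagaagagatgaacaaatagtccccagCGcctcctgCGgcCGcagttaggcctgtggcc
Hoxd8: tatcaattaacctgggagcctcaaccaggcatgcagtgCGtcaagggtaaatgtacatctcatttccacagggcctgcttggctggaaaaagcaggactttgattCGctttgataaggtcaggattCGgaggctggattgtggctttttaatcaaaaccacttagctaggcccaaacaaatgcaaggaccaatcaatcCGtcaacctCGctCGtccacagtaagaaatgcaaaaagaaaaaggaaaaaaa

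Between samples of the same age, Hoxa11 and Hoxa13 each varied together with the noncoding transcript Hoxa11os. No pair made of Hox genes alone passed the threshold by both correlation measures, r and rho. Deviations from the age means were correlated over the 16 arrays for all 325 pairs of the 24 genes and 2 noncoding transcripts of the clusters, Hoxa11os and Hoxd3os1, with 100000 permutations of arrays within ages and adjustment over the 325 pairs. The median r was 0.195 over the 80 pairs within a cluster and -0.04 over the 245 pairs between clusters, which were not tested against each other. Hoxa11 and Hoxa11os, its antisense transcript, had r = 0.947 (permutation adjusted p = 0.0487) and rho = 0.947 (adjusted p = 0.00975), and r was 0.885 within slide 1 and 0.957 within slide 2. Leaving out the 2 arrays farthest from the median gave r = 0.886. The labels do not say which strand was read, so the signals of a gene and its antisense partner cannot be told apart with certainty.

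Hoxa13 and Hoxa11os had r = 0.883 (permutation adjusted p = 0.0487) and rho = 0.859 (adjusted p = 0.0406), with 0.787 in slide 1, 0.931 in slide 2 and 0.792 without the 2 farthest arrays. Hoxa11 and Hoxa13 had r = 0.858, which missed the threshold (permutation adjusted p = 0.0676). Hoxa11os itself was at 0.92, 1.11, 1.44 and 0.76 at 3 months, 1.09, 1.45, 1.39 and 1.19 at 15 months, 1.17, 0.30, 0.30 and -0.18 at 24 months, and 1.02, 0.80, 1.46 and -0.02 at 29 months. It was low on 24 months replicates 2, 3 and 4 and on 29 months replicate 4. It was not called in any comparison, with a change of -0.66 at 24 against 3 months (adjusted p = 0.221).

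Hoxd8 and Hoxd9 had r = 0.963 (permutation adjusted p = 0.0487) but rho = 0.812 (adjusted p = 0.123), with 0.977 in slide 1, 0.862 in slide 2 and 0.800 without the 2 farthest arrays, replicates 1 and 4 of 15 months. Hoxd3os1 had r = 0.915 with Hoxd8, 0.918 with Hoxd9 and 0.869 with Hoxd10, none past the threshold (permutation adjusted p 0.0966, 0.0973 and 0.0973). Without the 2 farthest arrays these were 0.657, 0.675 and 0.539. The 16 arrays share their scaling, and neighbours may share it with all other genes.

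**Figure D4:**
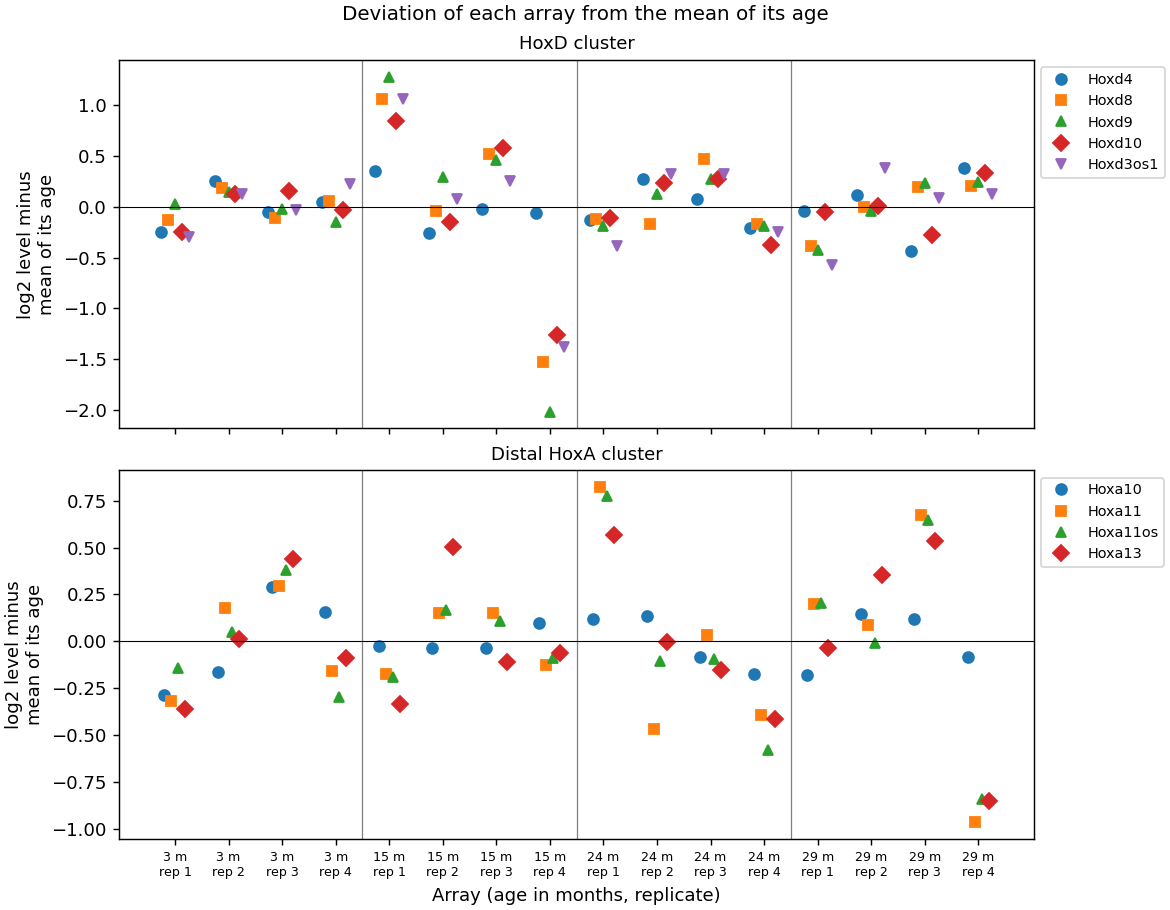
Log2 level of each array minus the mean of its age, for HoxD genes with the transcript Hoxd3os1 (top) and for distal HoxA genes with Hoxa11os (bottom), by array. Hoxd8, Hoxd9, Hoxd10 and Hoxd3os1 are low together on 15 months replicate 4 while Hoxd4 is near 0, and Hoxa11, Hoxa11os and Hoxa13 move together on 29 months replicate 4 while Hoxa10 does not.

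Lists of genes that work with or upstream of the Hox genes follow. Of the Hox cofactors, 8 of 9 were tested and Pbx4 was not. In 4 of the 5 fits none was called, and at 29 against 3 months 1 of 8 was, where 14.8% of all genes were. This was Pknox2, a homeodomain partner, with a change of -0.74 (SE 0.18, adjusted p = 0.0118), a call lost with median scaling (0.0563) and in a fit of those 2 ages alone (0.0654). It averaged 2.91 ± 0.25, 2.88 ± 0.20, 2.50 ± 0.09 and 2.16 ± 0.41 at 3, 15, 24 and 29 months (SD, n = 4 each). Pbx3 was -0.66 at 15 against 3 months (adjusted p = 0.113) and -0.63 at 24 against 3 months (adjusted p = 0.0591). Pbx2, Meis1, Meis2, Meis3 and Pknox1 were not called, with changes at 29 against 3 months of -0.01, -0.00, -0.11, -0.14 and 0.06.

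Of 27 genes for limb identity and outgrowth, 15 were tested. Tbx4, which with Pitx1 specifies the hindlimb, was well above background on 16 arrays, Pitx1 on 4 and Tbx5, the forelimb counterpart of Tbx4, on 1. Tbx4 averaged -0.53 ± 0.19, -1.40 ± 0.24, -1.24 ± 0.34 and -0.83 ± 0.23 at 3, 15, 24 and 29 months (SD, n = 4 each), and all 15-month and all 24-month arrays lay below those of 3 months. It was lower at 15 than at 3 months within slide 1, by -0.87 (SE 0.17, adjusted p = 0.0289), and at 24 than at 3 months, by -0.71 (SE 0.17, adjusted p = 0.0338), and was not called at 29 against 3 months (-0.30, adjusted p = 0.275). Leaving out 1 array of 3 months, or replicate 1, 2 or 3 of 15 months, ended the call at 15 months (adjusted p 0.0517 to 0.103). Leaving out 1 array of 3 months, or replicate 2 or 4 of 24 months, ended that at 24 months (adjusted p 0.0565 to 0.0943). Of 10 other settings, 7 kept the call at 15 months and 6 that at 24 months.

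Irx3, which acts in the proximal and anterior hindlimb bud, was higher at all older ages. It averaged -2.11 ± 0.65 at 3 months, -0.35 ± 0.74 at 15, 0.14 ± 0.17 at 24 and 0.05 ± 0.70 at 29 months (SD, n = 4 each). The arrays of the older ages all lay above those of 3 months. Its changes against 3 months were 1.76 (SE 0.39, adjusted p = 0.0499) at 15 months, 2.25 (adjusted p = 0.00554) at 24 and 2.16 (adjusted p = 0.00232) at 29 months. The call at 15 months was lost when any 1 array was left out, other than 3 months replicate 1 and 29 months replicates 2 and 3 (adjusted p 0.0525 to 0.16), and in 5 of 11 other settings (0.0554 to 0.108), where it was 1.01 with normexp.

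The 3 limb genes called lower at 29 than at 3 months are all known from limb bud mesenchyme. They were Prrx1 (-0.49, adjusted p = 0.0113), Prrx2 (-1.35, adjusted p = 0.0228) and Twist1 (adjusted p = 0.00918). Twist1 was well above background on no array of 29 months. Its mean was 1.79-fold lower there when each 29-month array counted at the higher of its own signal and the dimmest well-above-background signal on it. This figure has no interval and depends on the processing. The Twist1 call was lost with normexp background correction, where the change was -0.21 (adjusted p = 0.157), and that of Prrx1 in 3 of 11 other settings (adjusted p 0.0652 to 0.104). Prrx2 was also lower at 24 than at 3 months (-1.52, adjusted p = 0.0310). It was well above background on 4 arrays at 3 months, 3 at 24 months and 2 at 29 months, so the size of its changes rests partly on dim signals. The call of Prrx2 at 29 months held in 4 of 10 other settings, and its change was -0.39 with normexp (adjusted p = 0.0634) and -0.61 without the 4 arrays of lowest weight (adjusted p = 0.116). It was lost without 3 months replicate 2 or 3 (0.0576 and 0.0672) or 29 months replicate 1 or 3 (0.0617 and 0.0647). The call of Prrx2 at 24 months was lost with no filter (0.0653), without 3 months replicate 1, 2 or 3 (0.055, 0.0755 and 0.0936) and without 24 months replicate 1 or 2 (0.07 and 0.0897).

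Over the list, 1 of 15 was higher and 3 lower at 29 against 3 months, with a median of -0.20, beside 6.97% higher, 7.87% lower and a median of -0.04 over all genes. Fibroblast and matrix markers moved the same way as these genes. The mean deviation of 16 fibroblast markers was 0.11 to 0.59 at 3 months, 0.16 to 0.30 at 15, -1.38 to 0.24 at 24 and -0.98 to 0.34 at 29 months. That of 13 matrix genes was 0.53 to 1.1, 0.06 to 0.36, -1.37 to 0.05 and -1.64 to 0.53. The lowest fibroblast values were those of 24 months replicate 2 and 29 months replicate 3. At 29 against 3 months 3 of 16 fibroblast and 8 of 13 matrix genes were lower and 0 of either were higher. Lower calls were not confined to these 2 lists. They also took in 5 of 12 smooth muscle and pericyte, 3 of 6 tendon and 3 of 10 endothelial markers, with 0 higher. In the other direction, 2 of 9 adipocyte and 1 of 4 B and plasma cell markers were higher, with 0 lower. The part of any of these cell types in the Hox and limb gene results was not tested.

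Polycomb subunits, which keep Hox clusters silent, had 23 of 24 genes tested. At 29 against 3 months 3 were higher and 6 lower, against 6.97% higher and 7.87% lower of all genes, with a median of -0.01 beside -0.04 over all genes, and at 15 against 3 months none was called. Jarid2, an accessory subunit of Polycomb repressive complex 2, averaged 1.61 ± 0.29, 0.96 ± 0.15, 0.89 ± 0.20 and 0.20 ± 0.14 at 3, 15, 24 and 29 months (SD, n = 4 each). It was lower at 29 than at 3 months by -1.41 (SE 0.15, adjusted p = 3.69e-05), a call kept in all 27 other fits. Within slide 2, at 29 against 24 months, it was lower by -0.68 (adjusted p = 0.0334), which missed the threshold in the fits without 15 months replicate 2 (adjusted p = 0.051), without 24 months replicate 1, 2 or 3 (0.0599, 0.092 and 0.0796) and without 29 months replicate 2, 3 or 4 (0.0716, 0.0542 and 0.0582), and in 6 of 11 other settings (0.0557 to 0.208). Cbx6, a reader of the Polycomb histone mark, was lower by -0.91 (adjusted p = 0.004) at 29 against 3 months, and the polyhomeotic subunits Phc2 and Phc3 were higher by 0.51 (adjusted p = 0.00451) and 0.44 (adjusted p = 0.00288), calls that median scaling ended (0.0514 and 0.0533).

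Of 12 Trithorax genes and histone H3K27 demethylases tested, which oppose Polycomb, 2 were called, both at 29 against 3 months, where 14.8% of all genes were. The demethylase Kdm6a was higher by 0.36 (adjusted p = 0.0277) and its relative Kdm6b lower by -0.57 (adjusted p = 0.0220). The call of Kdm6a was lost without 3 months replicate 1, 2 or 4 or 29 months replicate 1 or 3 (adjusted p 0.0583 to 0.0759), and that of Kdm6b without 3 months replicate 3 or 4 or 29 months replicate 1 (adjusted p 0.0564 to 0.0701). Each was also lost in 4 of 11 other settings (adjusted p 0.0697 to 0.17 for Kdm6a, 0.0675 to 0.145 for Kdm6b).

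Retinoic acid sets the borders of Hox expression in the embryo, and 13 of 18 genes of its pathway and of the Cdx regulators were tested. The synthesis enzyme gene Aldh1a1 averaged 4.05 ± 0.33, 5.66 ± 0.31, 5.39 ± 0.25 and 5.50 ± 0.35 at 3, 15, 24 and 29 months (SD, n = 4 each). It was higher at 15 than at 3 months within slide 1 by 1.62 (SE 0.21, adjusted p = 0.00198), and by 1.35 (adjusted p = 0.00289) at 24 and 1.45 (adjusted p = 0.000464) at 29 against 3 months, calls kept in all 27 other fits each. The receptor genes Rara and Rarb were lower at 29 than at 3 months, by -0.79 (adjusted p = 0.00276) and -0.65 (adjusted p = 0.00609), and no leave-out of 1 array ended either call. Median scaling ended that of Rarb (0.0580). Rara was also called lower at 24 than at 3 months, a call kept in all 27 other fits. At 15 against 3 months, within slide 1, Rara was called lower as well. That call held in 7 of 11 other settings and in 9 of the 16 fits that left out 1 array. The change ranged from -0.81 to -0.64 over these fits. Rarb was also lower at 29 than at 24 months within slide 2, by -0.75 (adjusted p = 0.0168), which missed the threshold without 24 months replicate 2 (0.0521) or 29 months replicate 3 (0.0557), and in 3 of 11 other settings (0.0893 to 0.254). Rarg was lower at 29 than at 3 months, a comparison across the slides, by -0.84 (adjusted p = 0.0215). This call was lost when 3 months replicate 2, 3 or 4 or 29 months replicate 3 was left out (adjusted p 0.0542 to 0.0631). It was also lost in 2 of 11 other settings (0.0606 and 0.0722).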

How the data were processed

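RNA of 16 gastrocnemius samples was measured on Agilent single-colour Cy3 arrays. Intensity values are the processed spot signals deposited by the authors, background-corrected by Feature Extraction 10.7.1.1, per the file headers, which name build mm9. The authors also deposited a table of log2 values, and how they made it is not given in the labels or headers. It was joined by feature number (r 0.985 to 0.992 with the scanner signals) and used as an alternative.

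Control spots and 93 outlier probes were left out, leaving 55588 probes. Of these, 26540 matched 1 RefSeq gene by accession (20122 genes) and 29048 matched none. Each log2 signal had the 75th percentile of its array subtracted. The filter required all 4 arrays of some age to be well above background (28433 probes passed), and the passing probe with the highest mean stood for its gene (21776 genes). limma 3.58.1 in R 4.3.3 was fitted to the 4 ages, two-sided, with Benjamini-Hochberg adjustment. The method was tested on simulated data. Correlations used Python 3.11.15 and scipy 1.17.1. A 95% interval is that of the mean change between ages, from its standard error in the limma fit. Its width reflects the scatter between these samples only.

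Array values were given for Hox genes called in a fit, or for the 3 with the smallest p where a fit called none; list genes were named where called, at most 4 per list and fit, as cofactors or as limb markers. Other Hox genes named were chosen after their values were seen. The members and lists were chosen with earlier results of these data known. Values of some genes of the lists are not reported here. Replicate numbers did not pair the samples. Slide as a random block could not be fitted, and matching members by a symbol column was not run, since no such column was among those used here.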

Additional observations from a re-analysis of the deposited data

Results flagged for a closer look

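In 6 of 96 groups of 4 samples, 1 sample stood apart from the other 3 by Dixon's criterion at the 95% level. Chance gives about 1 in 20. Hoxa6 was at -2.55 on 15 months replicate 3, against -2.15 to -2.09 on the others. Hoxa7 was at 2.16 on 3 months replicate 4, against 2.06 to 2.07. Hoxa10 was at 0.62 on 15 months replicate 4, against 0.49 to 0.50. Hoxb6 was at 2.19 on 29 months replicate 1, against 3.00 to 3.15. Hoxc11 was at 0.15 on 24 months replicate 2, against -0.41 to -0.32. Hoxd8 was at 2.03 on 24 months replicate 3, against 1.39 to 1.45.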

How the results depend on the processing

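None of the Hox changes called, or of smallest p where a fit called none, changed direction, nor did the called list changes followed here. Among the other Hox changes, Hoxc5 at 29 against 3 months went from -0.606 to 0.048 with normexp. Hoxb7 at 29 against 24 months went from 0.348 to -0.003 with array weights and to -0.067 without the 4 arrays of lowest weight. At 24 against 3 months, where 2 Hox genes were called, median scaling called 4, array weights 4, a fit of those 2 ages alone 0 and the fit without the 4 arrays of lowest weight, chosen after seeing the data, 0; leaving out 1 array gave 0 to 3. At 29 against 3 months, also 2, quantile normalization, median scaling, normexp, the deposited log2 values, no filter and the 2 ages alone each called 1, Hoxa10, array weights called 4 and the fit without the 4 arrays 4; leaving out 1 array gave 1 to 4. At 15 against 3 months leaving out 1 array gave 0 to 1. For 29 against 24 months it gave 0 to 0. The line in age called 0 with slide as a block, 1 with array weights and 4 without the slide block, and leaving out 1 array gave 0 to 0. With replicate number as a block, 3 Hox genes were called at 24 against 3 months and 1 at 29 against 3 months; samples with the same number had a median correlation of 0.001 (-0.471 to 0.303), so the numbers are not a pairing. Median scaling moved the median of all genes by -0.145 for 24 against 3 months and by 0.139 for 29 against 24 months. It called 530 genes at 24 against 3 months (203 higher), beside 961 (485 higher), and 1556 at 29 against 3 months (833 higher), beside 3231 (1518 higher). At 15 against 3 months it called 89, beside 201, at 29 against 24 months 239 (214 higher), beside 340 (244 higher), and for the line 68 (51 higher), beside 134 (77 higher). Other counts over all genes that moved by more than 1.5 times follow. For 15 against 3 months, array weights called 1140, the fit without the 4 arrays 788, the 2 ages alone 713, the deposited values 314 and no filter 101. For 24 against 3 months, normexp called 1833, the deposited values 1467 (546 higher), the 2 ages alone 560 and no filter 473. For 29 against 3 months the 2 ages alone called 1993. For 29 against 24 months, the deposited values called 1097 (663 higher), normexp 672, the replicate block 211, array weights 200, no filter 142, the fit without the 4 arrays 42 and the 2 ages alone 9. For the line, no slide block called 2964, array weights 1098, the fit without the 4 arrays 596, the replicate block 71 and no filter 66. The causes were not tested. Dim probes limit Hox genes not well above background to a bound.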
